A study of Homo sapiens with 6 samples.

Results

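The subunits of integrins and laminins were followed through a miR-CLIP experiment. The deposited table was searched for gene symbols of integrin alpha subunits, integrin beta subunits and laminin chains, without use of any measured value. The search found 36 of the 18234 genes in the table, made up of 16 integrin alpha, 8 integrin beta, 5 laminin alpha, 4 laminin beta and 3 laminin gamma genes.

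Integrins are the cell surface receptors through which fibroblasts hold on to the extracellular matrix. Each is a pair of an alpha and a beta subunit, and the pairing sets the ligand, which can be fibronectin, a collagen or a laminin. Laminins are the cross-shaped glycoproteins of basement membranes, each assembled from an alpha, a beta and a gamma chain, so that the receptor and one of its main ligands are both built from members of small gene families. MicroRNAs such as miR-146a are loaded into AGO2 and pair through their seed with sites in the 3′ UTR of messenger RNAs.

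All 6 libraries were made from IMR90, a line of normal human lung fibroblasts. A retrovirus gave the cells RASV12, an oncogenic form of RAS, and puromycin selection (1.5 ug/ml) lasted 3 days. Seeding was on day 10, and 24 hours later the cells received, by transfection, a miR-146a mimic that carries an internal psoralen and biotin. In miR-CLIP, RNA bound to AGO2 is immunoprecipitated and RNA joined to the biotin of the mimic is then taken up on streptavidin. The labels give 3 Input and 3 miR-CLIP libraries, name an AGO2 antibody for the miR-CLIP libraries alone, and describe the purification once for all samples, so the sources used here do not say at which point Input RNA was taken. Cells with an empty vector or an unmodified mimic, which the protocol also mentions, are not analysed here. Libraries are called A, B and C after the column names, and wherever 3 values are given for a group they stand in that order. Nothing ties the letters to the numbered replicates of the labels. Since separate cultures are not mentioned either, a p-value here speaks for the spread of these libraries, which may be technical.

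Values are normalised read counts, meaning reads divided by 1 factor per library by the authors, on build GRCh38. The rows of the table held between 6847837 and 12771968 reads per library. The miR-CLIP libraries were not a close group, and B was the one most like Input. Across the 8506 genes tested, miR-CLIP B had a Pearson r of 0.973 to 0.983 with the Input libraries and of 0.911 and 0.929 with miR-CLIP C and A, while the Input libraries had 0.980 to 0.987 with each other. The r between miR-CLIP A and C was 0.942. With Input, A had 0.940 to 0.952 and C 0.925 to 0.930, so A was closer to Input A and B than to miR-CLIP C. Results are therefore given with and without miR-CLIP B. Because this library was singled out for its likeness to Input, leaving it out favours differences between the groups. Calls made without it are descriptive. Of 10 listed fibroblast markers 8 were in the table, all tested, with a summed level of 54524 to 68968 in Input and 63076 to 71791 in miR-CLIP. Most of it came from COL1A1 and COL1A2, with Input means of 28324.5 and 15945.1. FAP and FBLN1 were far lower, with Input means of 577.5 and 145.3. DCN had an Input mean of 2110.3 and 439.9, 3887.4 and 715.2 in miR-CLIP. Epithelial markers summed to 1021 to 1376 in Input and to 540.0, 2274 and 1050.2 in miR-CLIP, most of it from KRT18 with 860.4 to 1180.0 in Input, while the cadherin CDH1 reached at most 0.867. Endothelial markers summed to 498 to 627 in Input and 325 to 602 in miR-CLIP, with FLT1 and CLDN5 at Input means of 190.2 and 164 and EMCN at 0 in all 6 libraries. Smooth muscle and pericyte markers summed to 3088 to 3795 in Input and to 1516, 4842 and 1769 in miR-CLIP. The part of these lists in the results was not tested.

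The guide strand and its matches are shown because a 3′ UTR match is the usual way in which a message pairs with a seed. The mature microRNA is given from RefSeq (GRCh38.p14, chr5:160485372-160485393, plus strand), with bases 2 to 8, the seed, in capitals.

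hsa-miR-146a-5p: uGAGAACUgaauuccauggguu

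The seed pairs with AGTTCTC, the 7mer-m8 site, or with GTTCTCA, the 7mer-A1 site, which shares GTTCTC with it. Both were searched on the transcript strand in 3′ UTRs of GENCODE 29, using for each gene the longest one. Of 36 integrin and laminin genes, 5 held at least 1 of these sites. Among 6335 tested protein-coding genes, whose 3′ UTRs differ in length, 12.2% held AGTTCTC and 20.5% held either. The 5 genes were ITGA2, an alpha subunit of a collagen receptor (chr5:53091429-53091458, plus strand), ITGAV, the alpha subunit of several vitronectin and fibronectin receptors (chr2:186680445-186680474, plus strand), its partner ITGB3 (chr17:47310652-47310681, plus strand), its partner ITGB8 (chr7:20411822-20411851, plus strand) and LAMB3, the beta chain of the epithelial laminin-332 (chr1:209614971-209615000, minus strand). The windows below are the GENCODE 29 transcript letters, 5′ to 3′, with the match in capitals.

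ITGA2: ttaggaggcacaacAGTTCTCttctaggat
ITGAV: atgttttttgtcattGTTCTCAagtgcaat
ITGB3: gttcataaatttatgGTTCTCAggcctgac
ITGB8: acagtgttccctggAGTTCTCcagtgctca
LAMB3: tatcccccgcctttAGTTCTCcactgggga

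ITGA2, ITGB8 and LAMB3 carried the 7mer-m8 form and ITGAV and ITGB3 the 7mer-A1 form. The match shown lay at nucleotide 845 of 4180 in the 3′ UTR of ITGA2 and at 1840 of 5757 in that of ITGB8. In the other genes GTTCTC alone occurred in ITGA1, ITGA9 and LAMA3. A match describes the letters and not binding.

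The first question was which receptors and laminin chains these fibroblasts express. Levels were set against each other only after division by the length of the longest coding transcript. In Input the most abundant member was ITGB1, the common beta subunit of the collagen, laminin and fibronectin receptors, at 15198 ± 3883 normalised read counts per kb (SD, n = 3). ITGA5, which pairs with it to form the main fibronectin receptor, was next at 4240 ± 359 per kb, and no Input library of either gene came within the range of the other. LAMB1, the vitronectin receptor subunit ITGB5 and LAMC1 followed at 1932 ± 151, 1808 ± 246 and 1742 ± 104 per kb, with Input ranges that overlapped from LAMB1 to ITGB5 and from ITGB5 to LAMC1. ITGA2, ITGA3 and ITGA6 had 1359 ± 130, 1165 ± 240 and 905 ± 281 per kb, each overlapping the next. LAMB2, ITGAV, LAMA4, ITGA11, ITGA1 and ITGB3 came after these in that order, from 426 ± 116 down to 174 ± 18.1 per kb. Each of these overlapped the next in Input range, except that ITGA1 lay wholly above ITGB3. The remaining genes reported here had Input means at or below 51.2 per kb.

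**Figure D1:**
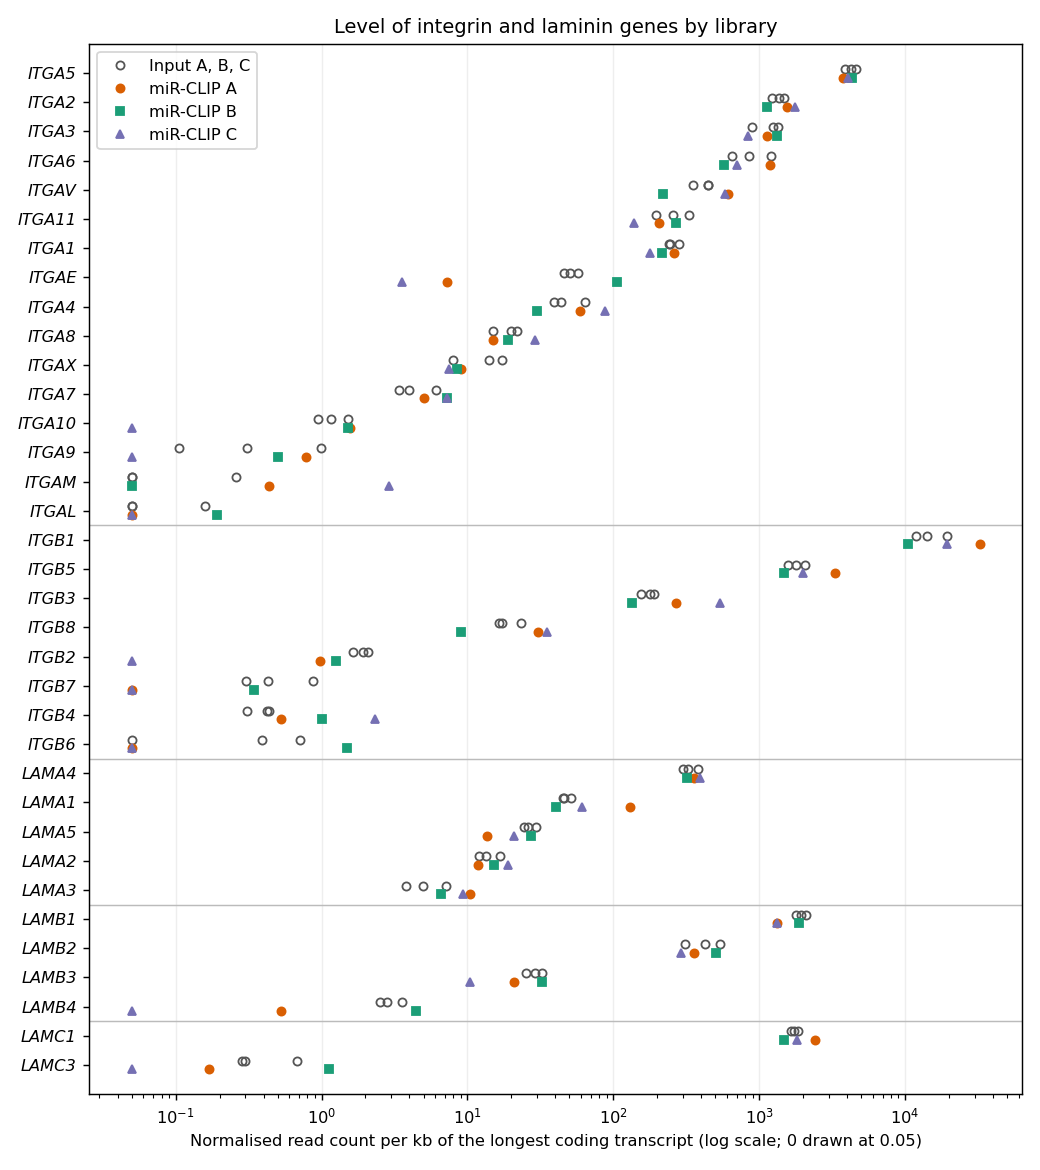
Normalised read count per kb of transcript (x axis, log scale) for the genes reported here (y axis), grouped by chain class and ordered by the Input mean, with 0 drawn at the left edge. Open circles are the 3 Input libraries and filled symbols miR-CLIP A, B and C; ITGB1 leads in all 6 libraries, and ITGAE and LAMB4 show the widest separation of miR-CLIP B from A and C among the genes above the lowest levels.

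Within each class the same gene had the largest share of the signal in all 6 libraries. ITGB1 was 87.9% ± 3.35 of the beta subunit signal per kb in Input and 88.2% ± 1.83 in miR-CLIP (SD, n = 3 each). ITGA5 was 48.6% ± 4.06 and 48.0% ± 4.95 of the alpha subunit signal. LAMA4, the alpha chain typical of mesenchymal and vascular laminins, was 78.0% ± 2.61 and 74.9% ± 5.60 of the alpha chain signal. LAMB1 was 80.8% ± 5.07 and 78.9% ± 2.13 of beta, and LAMC1 89.0% ± 2.62 and 88.6% ± 2.66 of gamma. In all 5 classes the difference between the groups was smaller than the spread of the 3 miR-CLIP libraries or of the 3 Input libraries. By these shares the laminin messages were mainly those of the chains alpha-4, beta-1 and gamma-1.

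**Figure D2:**
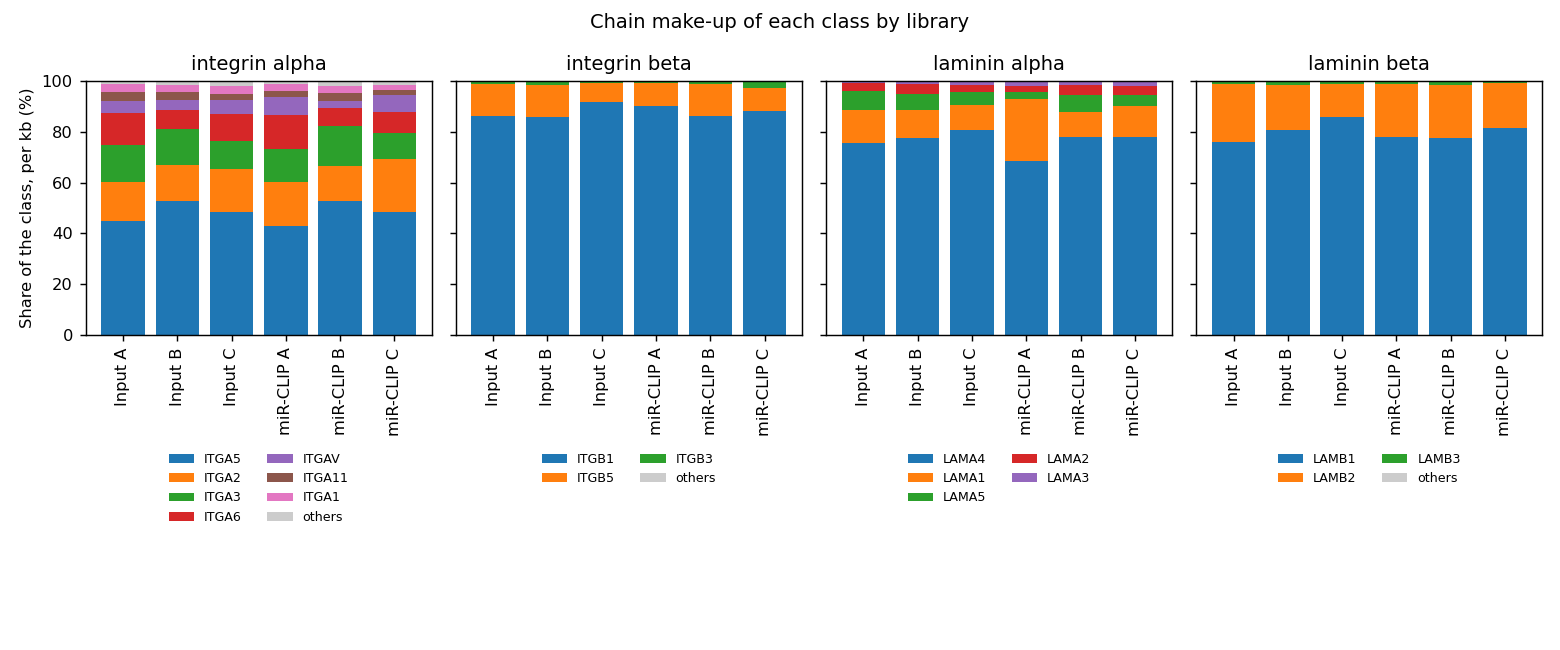
Share of each gene (y axis, percent of the class, per kb) in the 6 libraries (x axis) for the integrin alpha and beta and laminin alpha and beta classes, with genes under 1% of their class in Input pooled as others. ITGB1, ITGA5, LAMA4 and LAMB1 hold the largest share of their class in every library; LAMA1 takes 24.7% of the alpha chain signal in miR-CLIP A against 9.63% to 13.0% in Input.

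Laminin alpha chains had the lowest summed level of the laminin classes in all 6 libraries. Summed per kb, laminin beta messages were 5.60 ± 0.388 times the alpha messages in Input, and gamma messages 4.59 ± 0.465 times. In miR-CLIP the beta to alpha ratio was 3.25, 5.90 and 3.21 in A, B and C, so B lay within the Input range of 5.18 to 5.95 and A and C below it. The ratio of LAMB1 to LAMC1 was 0.964, 1.17 and 1.21 in Input and 0.550, 1.27 and 0.724 in miR-CLIP, with A and C below the Input range and B above it. The ratio of LAMA4 to LAMC1 did not divide in this way, with 0.162 to 0.219 in Input and 0.149 to 0.218 in miR-CLIP. For the receptors the sum of beta over alpha subunits was 1.99 ± 0.566 in Input and 4.12, 1.46 and 2.59 in miR-CLIP.

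The second question was which of these messages differ between miR-CLIP and Input. In the limma fit of all tested genes with the 6 libraries, no integrin or laminin gene was called higher or lower at an adjusted p of 0.05, and neither was any other gene (percent called 0% in each direction). Testing required that 3 libraries or more reach a value of 1, which 34 of the 36 genes met. ITGAL and ITGB7 did not, with at most 2.49 in any library. At an unadjusted p under 0.05, 0 of the 34 were higher and 0 lower, where 2.40% and 4.04% of all tested genes were. The median log2 fold change of the 34, 17 positive and 17 negative, was 0.00 (-0.004), against -0.13 over all tested genes. The authors' deposited table gave none of the 36 a p under 0.05 (2.82% of all genes with a p had one), the smallest being 0.126 for ITGAM.

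All 3 miR-CLIP libraries lay above all 3 Input libraries for 1 of the 34 genes (5.64% of all tested genes) and below them for 1 (7.34%). Both were barely expressed. Taken singly, miR-CLIP A lay above all Input libraries for 12 genes (36.1% of all tested genes) and below for 9 (41.6%), B above for 7 (34.4%) and below for 12 (28.2%), and C above for 14 (33.5%) and below for 14 (47.2%). ITGB4, the beta subunit of the hemidesmosome receptor of epithelia, had 1.84, 2.49 and 2.60 in Input and 3.10, 5.96 and 13.8 in miR-CLIP. ITGB2, the beta subunit shared by leukocyte integrins, had 6.12, 6.65 and 5.20 in Input and 3.10, 3.97 and 0 in miR-CLIP. These are low read counts, with 1 read worth 0.612 in Input A and 1.25 in miR-CLIP C, and the limma adjusted p was 0.611 for each.

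The collagen receptors showed no common direction. ITGA2 had 11661, 9627 and 10799 in Input and 12179, 8859 and 13814 in miR-CLIP. Its neighbour on chromosome 5, ITGA1 (52787896 to 52959210), had 3045, 2579 and 2649.8 in Input and 2779.6, 2306 and 1908 in miR-CLIP. ITGA1 shares 475 exonic bases with PELO on the same strand, a gene that is not in the table. For ITGA2 miR-CLIP A and C lay above all Input libraries and B below them, while for ITGA1 libraries B and C lay below. ITGA11, whose product is a fibroblast receptor for fibrillar collagens, had 3351, 2624 and 1983 in Input and 2085, 2757 and 1413 in miR-CLIP. The log2 fold changes were 0.10 ± 0.29 (SE) for ITGA2, -0.26 ± 0.25 for ITGA1 and -0.37 ± 0.33 for ITGA11. ITGA10 stayed at or below 8.26 throughout.

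Among the laminin receptor subunits, ITGA3 had 6615, 6099 and 4372 in Input and 5527, 6433 and 4101 in miR-CLIP. ITGA6, which pairs with ITGB1 or ITGB4, had 6786, 3667 and 4805 in Input and 6613, 3215 and 3953 in miR-CLIP. The groups overlapped for both. Their log2 fold changes were -0.09 ± 0.30 and -0.17 ± 0.36. ITGA7, the laminin receptor subunit of muscle, had 14.1 to 24.9 in Input and 20.7 to 30.0 in miR-CLIP.

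ITGA5 had the smallest spread of log2 values over the miR-CLIP libraries of the tested members. It had 18779, 20472 and 17280.0 in Input and 16693, 19233 and 18105 in miR-CLIP, and the groups overlapped. For ITGA5 the log2 fold change was -0.06 with a 95% confidence interval of -0.69 to 0.56. ITGAV had 3135, 2460 and 3121 in Input and 4264, 1551 and 4083 in miR-CLIP, so that A and C lay above every Input library and B below every one. ITGA8, which also recognises the RGD sequence, had 101 to 148 in Input and 101, 128 and 198 in miR-CLIP. Without miR-CLIP B the log2 fold change was 0.53 ± 0.18 for ITGAV (limma adjusted p 0.0569) and -0.11 ± 0.20 for ITGA5 (0.703). ITGA4, which binds fibronectin and the endothelial ligand VCAM-1, had 165, 182 and 268 in Input and 247, 125 and 369 in miR-CLIP, and ITGA9 at most 7.81.

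Of the beta subunits that partner ITGAV, ITGB6 was barely detected, with 1.84, 3.33 and 0 in Input and 0, 6.95 and 0 in miR-CLIP. ITGB3 had 757, 709 and 615 in Input and 1071, 533 and 2149 in miR-CLIP. ITGB5 had 9047, 7762 and 6909.6 in Input and 14420.4, 6499 and 8694 in miR-CLIP. ITGB8, whose pair with ITGAV activates latent TGF-beta, had 203, 151 and 144 in Input and 266, 79.4 and 305 in miR-CLIP. In ITGB3, ITGB5 and ITGB8 miR-CLIP B was lower than any Input library and miR-CLIP A higher than any, and in ITGB3 and ITGB8 miR-CLIP C was higher as well. ITGB1 had 53499, 45241 and 73792 in Input and 123356, 39269.8 and 72682 in miR-CLIP, with A above and B below the Input range and C inside it. The log2 fold changes with all 6 libraries were 0.63 ± 0.46, 0.25 ± 0.34, 0.19 ± 0.52 and 0.33 ± 0.48 for ITGB3, ITGB5, ITGB8 and ITGB1.

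ITGB3 was the 1 member called higher in the limma fit without miR-CLIP B, of 34, where 12.6% of all tested genes were called higher. Its log2 fold change there was 1.13 ± 0.29 with an adjusted p of 0.0223. After a correction for transcript length and GC content in the same fit it was 0.71, with an adjusted p of 0.113. The annotation has a second coding gene on the same strand that shares 2266 exonic bases with ITGB3. That gene is not in the table, and how reads from the shared bases were assigned is not known. ITGB1 also has a pseudogene copy, ITGB1P1, with 124 to 197 in Input and 345, 114 and 268 in miR-CLIP, and reads of the pair may be split.

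**Figure D3:**
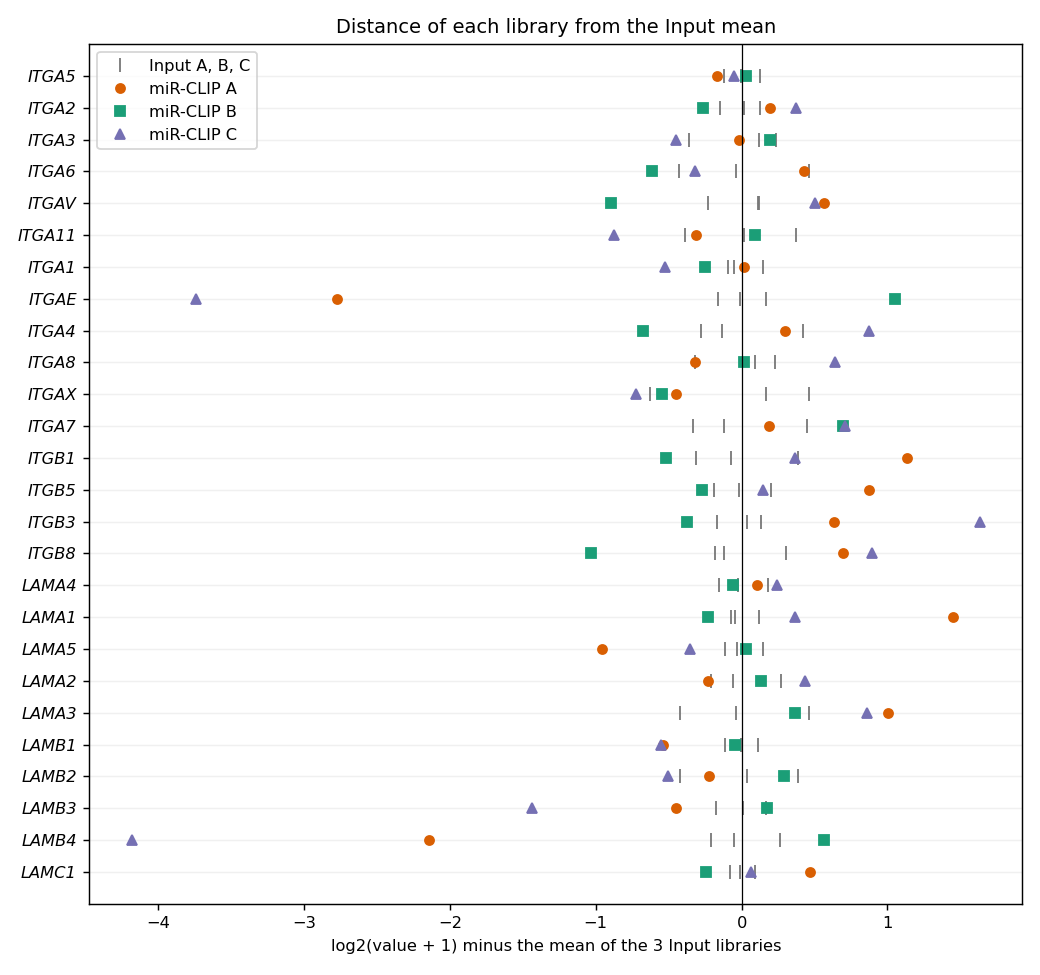
Difference of log2(value + 1) from the mean of the 3 Input libraries (x axis) for the tested genes reported here with an Input mean of at least 10 (y axis), with Input libraries as grey ticks and miR-CLIP A, B and C as circles, squares and triangles. ITGAE and LAMB4 extend to -3.74 and -4.18 in miR-CLIP C while miR-CLIP B lies at 1.05 and 0.56.

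Leukocyte integrins were near the limit of detection except for ITGAX and ITGAE. ITGAM had no more than 2.07 in any library but miR-CLIP C, where it had 13.8. ITGAX, the alpha subunit of complement receptor p150,95, had 37.4, 65.7 and 80.7 in Input and 42.3, 39.7 and 35.0 in miR-CLIP. Blood cell markers had a summed level of 123, 383 and 627 in Input and of 160, 338 and 639 in miR-CLIP. Most of it came from LCP1, with 93.1, 358 and 614 in Input, while CD3E reached at most 1.03, and their part in the ITGAX values was not tested. In the bulk RNA of the Input libraries, fewer cells of a kind and less RNA per cell cannot be told apart.

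ITGAE, the alpha subunit of the lymphocyte receptor for E-cadherin, showed the widest gap between miR-CLIP libraries of the integrins with an Input mean of at least 10. It had 195, 221 and 176 in Input and 27.9, 408 and 13.8 in miR-CLIP. Libraries A and C were thus lower than every Input library and B higher than every one. With all 6 libraries the log2 fold change was -1.82 ± 1.05 and the limma adjusted p 0.611, while edgeR and DESeq2 on recovered reads gave -0.43 and -0.41. Without miR-CLIP B it was -3.26 ± 0.39 with an adjusted p of 0.0016, and ITGAE was 1 of the 2 members called lower there, where 16.1% of all tested genes were. The exons of ITGAE share 427 bases with GSG2 on the other strand, a kinase gene with 59.0 to 88.8 in Input and 154, 95.3 and 118 in miR-CLIP. The sources used here do not give the strand setting of the counting, so reads from the shared bases cannot be told apart.

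Laminin alpha chains differed in direction, and the groups overlapped for all 5. LAMA4 had 1959, 2139 and 2476 in Input and 2346, 2093 and 2577 in miR-CLIP, and the groups overlapped. LAMA1, the chain of embryonic basement membranes, had 497, 442 and 435 in Input and 1250, 390 and 590 in miR-CLIP, with A and C above every Input library and B below. LAMA5, found in most adult basement membranes, had 336, 298 and 280 in Input and 156, 311 and 238 in miR-CLIP, with A and C below every Input library. The exons of LAMA5 share 244 bases with ADRM1 on the other strand. ADRM1 had 1859, 2035 and 1902 in Input and 1357, 3177 and 1313 in miR-CLIP, and reads from the shared bases cannot be told apart. LAMA3, the alpha chain of laminin-332, had 40.4, 53.2 and 75.5 in Input and 110, 70.5 and 100 in miR-CLIP, and LAMA2, the muscle chain, 116 to 162 and 115 to 183. The log2 fold changes were 0.10 ± 0.24 for LAMA4, 0.53 ± 0.41 for LAMA1, -0.43 ± 0.34 for LAMA5, 0.74 ± 0.43 for LAMA3 and 0.11 ± 0.35 for LAMA2. None was called with limma with or without miR-CLIP B before the length and GC correction described with the transcript lengths. That correction without miR-CLIP B called LAMA4 and LAMA5 lower, and edgeR without that library called LAMA1 higher, with an adjusted p of 0.0346.

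All 4 laminin beta genes lay below their Input mean in miR-CLIP A and in miR-CLIP C. Of the 8506 tested genes, 4547 did so in A and 4957 in C. LAMB1 had 10292, 11104 and 12029 in Input and 7646, 10782 and 7584 in miR-CLIP. LAMB2, the beta chain of neuromuscular and kidney basement membranes, had 3076, 2415 and 1756 in Input and 2019, 2886 and 1657 in miR-CLIP. LAMB3 had 109, 139 and 124 in Input and 89.8, 139 and 45.0 in miR-CLIP, and LAMB4, which lies next to LAMB1 on chromosome 7, had 14.7, 20.8 and 16.5 and 3.10, 25.8 and 0. For LAMB1, LAMB3 and LAMB4 libraries A and C were lower than every Input library (31.9% of all tested genes), and for LAMB2 library C was (47.2%). The median log2 difference from the Input mean over the 4 genes was -0.50, 0.23 and -0.99 in miR-CLIP, against -0.10, 0.06 and -0.28 over all tested genes.

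With all 6 libraries the log2 fold changes of LAMB1, LAMB2, LAMB3 and LAMB4 were -0.38 ± 0.28, -0.14 ± 0.32, -0.57 ± 0.47 and -1.92 ± 1.09. For LAMB4 edgeR gave -0.85, DESeq2 -0.84 and limma with a pseudocount of 5 -1.04. Without miR-CLIP B they were -0.55 ± 0.17, -0.36 ± 0.25, -0.94 ± 0.38 and -3.16 ± 0.75, with limma adjusted p of 0.0502, 0.303, 0.0986 and 0.0182. LAMB4 was thus the other member called lower without that library, from an Input mean of 17.3. LAMB1 was called lower with edgeR without miR-CLIP B, with an adjusted p of 0.0284. That test called 2 of the 34 genes higher (11.7% of all tested genes) and 3 lower (15.8%).

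For the gamma chains LAMC1 and LAMC3 the groups overlapped. LAMC1 had 14615, 12991 and 13627 in Input and 19013, 11592 and 14337 in miR-CLIP. For LAMC1 the log2 fold change was 0.10 with a 95% interval of -0.58 to 0.77. LAMC3 had at most 6.95 in any library.

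**Figure D4:**
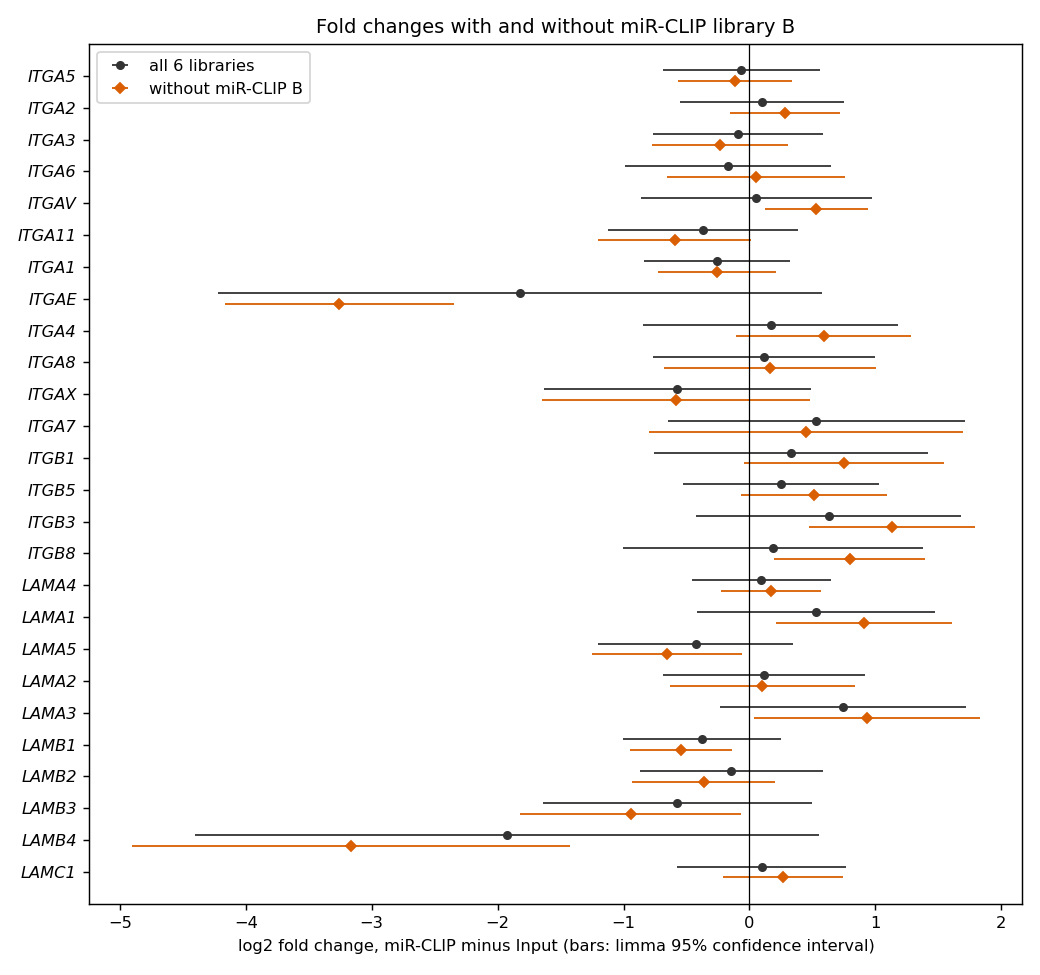
log2 fold change of miR-CLIP over Input with its limma 95% confidence interval (x axis) for the tested genes reported here with an Input mean of at least 10 (y axis), from all 6 libraries (black) and without miR-CLIP B (orange). With all 6 libraries every interval includes 0; without miR-CLIP B, ITGAE and LAMB4 lie lowest at -3.26 and -3.16 and ITGB3 highest at 1.13. Intervals are not adjusted for the number of genes.

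The 5 genes with a 7-letter match to the seed were set beside the rest as a description, since no test over members was made. In 4 of them, ITGA2, ITGAV, ITGB3 and ITGB8, miR-CLIP A and C were both above all Input libraries. In the 5th, LAMB3, both were below. Of the 29 tested members without such a match, A and C were both above all Input libraries in 4 and both below in 6, and of all tested genes in 23.1% and 31.9%. The medians over the 5 genes were 0.56, -0.37 and 0.50 in miR-CLIP, and those over the 29 genes 0.02, 0.03 and -0.32. In miR-CLIP B the same 4 genes lay below all Input libraries. The 5 genes also had a median transcript of 7030 nucleotides and 40.2% GC, against 5674 and 50.7% for the 29. Without miR-CLIP B the median log2 fold change of the 5 was 0.53, and 0.27 with the length and GC correction, where ITGA2 turned from 0.28 to -0.05. The corrected medians of the 5 in miR-CLIP A and C were 0.20 and 0.24.

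Length of the transcript went with the difference between libraries over all genes. In the longest of 4 equal bins of tested genes, at least 4654 nucleotides, the median log2 difference from Input was 0.50, -0.23 and 0.32 in miR-CLIP, and in the shortest, up to 1607 nucleotides, -0.70, 0.40 and -1.16. Integrin and laminin transcripts were long, with 25 of the 34 in the longest bin and none in the 2 shortest. Among the 34 genes themselves, which share the 6 libraries, the Spearman correlation of the difference with length was 0.12, 0.06 and 0.09 in A, B and C, and that with GC content -0.28, 0.45 and -0.21. After the length and GC correction with all 6 libraries, no member was called, and the median log2 fold change of the 34 was -0.25, against -0.16 over all genes.

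With that correction and without miR-CLIP B, 0 of the 34 were called higher (6.82% of all genes) and 11 lower (16.3%), an alternative added after seeing the data. The 11 were ITGA1, ITGA3, ITGA5, ITGA11, ITGAE, LAMA4, LAMA5 and all 4 laminin beta genes. Their corrected log2 fold changes ran from -3.80 for LAMB4 to -0.52 for LAMA4. For LAMB1 the value was -1.23 with a limma adjusted p of 0.00243, and for ITGA5 -0.69 with an adjusted p of 0.0224. The median of the 34 in that fit was -0.55, against -0.28 over all genes. These calls rest on miR-CLIP A and C alone. Without the correction, limma made only those of ITGAE and LAMB4, and edgeR also that of LAMB1.

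Genes that work with these receptors were read from 3 lists of 66 genes, of which 47 were in the table and 44 were tested. Absent from the table were all listed adaptors after LIMS2 in alphabetical order, among them PTK2, PXN, TLN1, VCL and ZYX. Of the other lists, SDC1, SDC4, NID1, NID2, PLEC, TNC, SPP1 and THBS1 were absent too. The sources used here do not say why, so their absence says nothing about their expression. No gene of the lists was called with all 6 libraries. At an unadjusted p under 0.05, 2 of the 44 were higher and 1 lower (2.40% and 4.04% of all tested genes). The groups did not overlap for 6 higher and 3 lower (5.64% and 7.34%). Among the 21 tested adaptors inside the cell, the docking protein BCAR1 had 2473, 2529.7 and 2335 in Input and 4339.8, 3094 and 3613 in miR-CLIP. The filamin FLNA, which ties beta subunits to actin, had a log2 fold change of 0.74 ± 0.36, with all miR-CLIP libraries above Input, and LIMS1, a partner of integrin-linked kinase, had -0.55 ± 0.24, with all below. The log2 fold change of BCAR1 was 0.58 ± 0.25.

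Among the 11 tested membrane partners 9 had a negative log2 fold change, as did 4846 of the 8506 tested genes. CAV1, the main protein of caveolae, had 4267, 3928 and 3695 in Input and 1528, 3302 and 1385 in miR-CLIP. This was a log2 fold change of -1.05 ± 0.35, and the hyaluronan receptor CD44 had -0.64 ± 0.39, with no overlap of the groups in either. Among the 12 tested basement membrane genes COL4A2 and COL4A6, chains of network-forming collagen, had 0.52 ± 0.30 and 0.43 ± 0.28, and COL7A1, the anchoring fibril collagen, 0.65 ± 0.27, each with all miR-CLIP libraries above Input. The limma adjusted p was 0.611 for each of these genes. Without miR-CLIP B, 9 adaptors were called higher and 3 lower, 0 membrane partners higher and 6 lower, and 1 basement membrane gene higher and 0 lower, where 12.6% of all tested genes were called higher and 16.1% lower. With the length and GC correction in that fit the counts became 1 higher and 5 lower for adaptors, 0 and 7 for membrane partners and 0 and 4 for basement membrane genes, against 6.82% and 16.3% of all genes. The median transcript of the membrane partners was 2289 nucleotides, and that of the basement membrane genes 6601.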

How the data were processed

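Values were taken from 1 deposited table with 1 signal value per gene and library. Genes missing from it, among them TLN1 and VCL, do not enter the shares and medians over all tested genes. In each column 100% of values were whole multiples of the lowest nonzero one (tolerance 1e-06), the form of read counts divided by 1 factor per library by the authors, and reads were recovered from them. 1 read was worth 0.612 to 1.25. Per the submitters' processing notes, Trimmomatic 0.35, STAR 2.5.1b, DESeq2 1.22.2 and GRCh38 were named, with no role or order. The same table has the authors' fold change, a ratio on a linear scale, and p-values, per the file headers. The sources used here do not give the counter or its strand setting.

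Two-sided limma-trend tests were run on log2(value + 1) with R 4.3.3 and limma 3.58.1. Genes entered when 3 libraries or more reached 1, which 8506 did; p-values were Benjamini-Hochberg adjusted over all of these and called at 0.05. A larger pseudocount shrinks fold changes of low genes, as for ITGA10 with -1.02, -0.73 and -0.25 at 0.5, 1 and 5. Against edgeR on recovered reads, limma values of low genes could be larger or smaller. ITGA10 had -0.23 with edgeR, and ITGAM 3.14 with edgeR against 1.45 with limma. The alternatives were pseudocounts of 0.5 and 5, other filters and scalings, edgeR 4.0.16, DESeq2 1.42.0 and limma-voom on recovered reads, a loess correction (span 0.5) for transcript length and GC, a replicate block, and leaving out each library. Only the limma-trend and edgeR fits with all 6 libraries were run on simulated counts. The other alternatives, and the fits without miR-CLIP B, were not. Transcripts and 3′ UTRs came from GENCODE 29, where the gene version of ITGA7, ITGAM, ITGB6, LAMA2 and LAMA3 differed from the table's. The members, the other gene lists and the tests were chosen with earlier results of these data known. Values are given per library for members with an Input mean of at least 10, and listed genes are named where groups do not overlap or the unadjusted p is under 0.05; some items that meet these rules are not reported here, though counts and medians include them.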

Additional observations from a re-analysis of the deposited data

How the results depend on the processing

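With all 6 libraries, no setting called an integrin or laminin gene. Over the fits that left out 1 library each, 0 to 1069 of all genes were called higher and 0 to 1373 lower, with 0 to 1 and 0 to 2 of the members, and the calls among members came without miR-CLIP B. DESeq2 called 2 genes higher in all, none a member. Without miR-CLIP B, in fits added after seeing the data, edgeR called 999 genes higher and 1345 lower (members 2 and 3), and the length and GC correction 578 and 1385 (members 0 and 11). The members' median log2 fold change of -0.004 was 0.039 with a pseudocount of 5, 0.095 with a minimum of 10, 0.236 with library medians set equal (which moved that of all genes from -0.134 to 0.107), 0.081 with edgeR and 0.097 with DESeq2. It was -0.250 with the length and GC correction and -0.548 with it and without miR-CLIP B. It ran from -0.083 to 0.088 when single libraries were left out. The cause of these shifts was not tested. LAMA4 turned from 0.10 to -0.52 with the correction and without miR-CLIP B (limma adjusted p 0.0439). Of 707 alternative values for 34 genes, 57 changed sign with no call on either side, and 14 genes never changed sign. These values include those with a replicate block, which could not differ from the values without it.

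With the letter as a replicate block, 0 genes were called. Such a block is balanced over the groups and cannot change a fold change. The median was therefore the same, at -0.004, or -0.250 with the length and GC correction. Same-letter libraries deviated together with r of 0.140, 0.107 and 0.086 for A, B and C, and each library correlated best with its own letter. Between different letters r ran from -0.083 to -0.041. Because 1 same-letter value was under 0.1, the main fit did not take the letters as pairs. Whether the letters mark shared preparations was not tested. Depth limits ITGAL, ITGB7 and the other genes at a few reads per library, where a difference was not detectable.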

Other observations

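Members differed in evenness, among them the partners ITGA5 and ITGB1. Over the 3 miR-CLIP libraries the SD of log2 values was 0.10 for ITGA5 and 0.15 for LAMA4, against 0.83 for ITGB1, 1.00 for ITGB3, 1.06 for ITGB8 and 2.53 for ITGAE. In Input these were 0.12, 0.17, 0.36, 0.15, 0.27 and 0.16. ITGAV, the partner of ITGB3 and ITGB8, had 0.825 in miR-CLIP and 0.2 in Input. Of the 34 tested members 28 had a larger SD in miR-CLIP than in Input, as did 7273 of the 8506 tested genes. The median SD of the members was 0.26 in Input and 0.56 in miR-CLIP, against 0.27 and 0.77 over all tested genes.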
